A study of Mus musculus with 6 samples.

Results

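Neuropeptide receptors let a sensory neuron respond to peptides released by its neighbours, by its targets or by itself. The expression of 10 mouse genes for such receptors was examined in cells sorted from embryonic dorsal root ganglia: Npy1r, Npy2r, Galr1, Galr2, Calcrl, Ramp1, Prokr2, Cckar, Sstr2 and Tacr1. They were chosen by gene symbol as receptors for neuropeptides, with earlier results of these data known, and each matched 1 of the 41388 genes listed. RNA was sequenced from 6 libraries of EGFP-positive cells of C57BL/6 embryos at 18.5 days post coitum. Ganglia from lower thoracic to first sacral levels were taken, except that the label of male C names no segments. By the labels the embryos carried the RetFloxedEGFP allele, which places EGFP under the control of Ret, together with a Cre recombinase inserted at the Scn10a (Nav1.8) locus, Scn10a tm2(cre)Jnw. The genotype label of male C is shortened to the Ret allele alone, while its title names both. EGFP thus marks cells that express Ret and that expressed Cre from the nociceptor gene Scn10a at some time. The number of copies of the Ret allele was not given in the sources used here. Libraries A, B and C of each sex were made, the female libraries and male A from 40 ganglia of 2 embryos each, male B from 60 ganglia of 3 embryos and male C from 20 ganglia of 1 embryo. No unsorted or EGFP-negative cells were analysed here, so levels describe the sorted population. Sex is the contrast tested between libraries. The labelled pool size also differed, but only among the male libraries.

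These receptors are, but for one, G protein-coupled receptors. Those for neuropeptide Y (NPY), galanin acting on Galr1, and somatostatin couple mainly to inhibitory Gi/o proteins and dampen firing and transmitter release. Receptors for substance P (Tacr1), cholecystokinin (Cckar), prokineticins (Prokr2) and galanin acting on Galr2 couple mainly to Gq and tend to excite. The receptor for calcitonin gene-related peptide (CGRP) is a complex: Calcrl is the seven-pass receptor and Ramp1 a single-pass partner that gives it selectivity for CGRP, whereas Ramp2 or Ramp3 turn the same Calcrl into a receptor for adrenomedullin. In dorsal root ganglia, peptides such as CGRP, substance P and galanin are made by nociceptors, and receptors for them lie on neurons, glia and vessels.

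Totals were between 15693013 and 24033601 reads per library, and 19526 to 21755 genes had a read. Markers of the sort were present in every library: Scn10a averaged 119 ± 16.8 RPKM (reads per kilobase of gene, scaled to library size) and Ret 27.8 ± 3.83 RPKM (SD, n = 6), and all 11 nociceptor markers reached 1 RPKM, from Prdm12 at 19.8 to Calca at 974.7 RPKM. RNA of other cells was also present. The 8 glial markers summed to between 385 and 525 RPKM, led by Fabp7 at 311 RPKM with Foxd3 lowest at 0.494 RPKM. The 6 fibroblast markers summed to between 150 and 175 RPKM, led by Dcn at 133 RPKM with Pdgfra lowest at 0.291 RPKM. The 12 endothelial and mural markers summed to between 16.6 and 21.7 RPKM, from Rgs5 at 9.88 RPKM to Des at 0.0490 RPKM. The 5 immune markers averaged under 1 RPKM, from Lyz2 at 0.620 to Ptprc at 0.0274 RPKM. The sympathetic neuron marker Slc6a2 had 0 reads. Of the 5 genes listed as spinal cord markers, Olig2, Mnx1 and Pax2 had 0 reads and Lmx1b had 3 reads in all. Hoxc10 alone of that list was higher, at an average of 8.53 RPKM, and which cells gave its reads was not tested. Of 3 further vessel markers Lyve1 averaged 4.04 RPKM and Prox1 0.0265 RPKM. In a bulk library a receptor transcript cannot be assigned to one cell type, and fewer cells of a type cannot be told apart from less RNA per cell.

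The DNA just before the start sites of the highest receptor gene, Npy2r, of its fellow NPY receptor gene Npy1r, and of 2 genes of low level, Ramp1 and Sstr2, is shown as the sequence context of a higher and a lower group. Each is the 250 bases before the RefSeq start (build GRCm38.p6), read 5′ to 3′ on the gene's strand. Capitals mark a GC box (GGGCGG) or a cyclic AMP response element (TGACGTCA) on either strand.
Npy2r, chr3:82548086-82548335, minus strand: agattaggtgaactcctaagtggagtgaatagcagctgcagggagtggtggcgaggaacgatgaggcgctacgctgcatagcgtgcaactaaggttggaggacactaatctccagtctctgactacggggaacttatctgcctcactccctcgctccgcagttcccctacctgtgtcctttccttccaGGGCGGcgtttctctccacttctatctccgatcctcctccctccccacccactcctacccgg
Npy1r, chr8:66697172-66697421, plus strand: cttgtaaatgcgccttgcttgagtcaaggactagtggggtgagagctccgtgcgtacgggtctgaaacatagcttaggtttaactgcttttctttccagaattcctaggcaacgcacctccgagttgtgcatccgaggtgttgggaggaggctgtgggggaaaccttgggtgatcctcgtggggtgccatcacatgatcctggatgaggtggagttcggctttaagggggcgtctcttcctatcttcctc
Ramp1, chr1:91179572-91179821, plus strand: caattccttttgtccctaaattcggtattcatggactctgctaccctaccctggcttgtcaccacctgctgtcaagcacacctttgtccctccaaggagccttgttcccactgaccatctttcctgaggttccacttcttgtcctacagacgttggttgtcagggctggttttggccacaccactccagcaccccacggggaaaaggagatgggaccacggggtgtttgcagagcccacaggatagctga
Sstr2, chr11:113619077-113619326, plus strand: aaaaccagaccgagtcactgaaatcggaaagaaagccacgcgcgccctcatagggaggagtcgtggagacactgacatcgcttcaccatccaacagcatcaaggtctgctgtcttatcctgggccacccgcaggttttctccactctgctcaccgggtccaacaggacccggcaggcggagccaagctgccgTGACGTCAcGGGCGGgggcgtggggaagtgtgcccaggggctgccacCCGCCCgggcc
The Npy2r window holds 1 GC box and 12 CpG dinucleotides, and the Npy1r window 10 CpG and no match. The Ramp1 window holds 4 CpG and no match. The Sstr2 window holds 18 CpG, 2 GC boxes and 1 cyclic AMP response element. Its place relative to exons of Slc39a11, a gene that overlaps Sstr2, was not examined. Among 32851 RefSeq windows of the same length, 32.74% hold a GC box, 1.55% hold the cyclic AMP response element, and the median is 6 CpG. Also searched on both strands, a TATA box (TATAAA, in 12.37% of windows) and a CCAAT box (CCAAT, in 33.85%) matched none of the 8 receptor genes whose windows were used. Only letters were matched, and no binding was measured.

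Npy2r, Galr1, Calcrl, Npy1r and Prokr2 averaged at least 1 RPKM, and Cckar, Sstr2, Ramp1, Tacr1 and Galr2 averaged less. The median of the 10 mean levels was 0.717 RPKM, against 0.0487 RPKM over all 41388 listed genes (28.0% of which reached 1 RPKM) and 3.93 RPKM over the 15026 genes that passed the filter on low counts. Of the 10 receptor genes 7 passed that filter, and Sstr2, Ramp1 and Galr2 did not. Even the highest, Npy2r, stood above only 47.6% of the genes that passed. Neighbours in the order of level were often close: Galr1 over Calcrl by 0.01 ± 0.29, Calcrl over Npy1r by 0.25 ± 0.59, Sstr2 over Ramp1 by 0.29 ± 0.83, Ramp1 over Tacr1 by 0.29 ± 0.73 and Tacr1 over Galr2 by 0.34 ± 0.42 on the log2(RPKM + 0.1) scale (mean and SD of the difference within a library, n = 6) did not differ beyond their spread. Npy1r over Prokr2 (0.97 ± 0.35) and Prokr2 over Cckar (1.29 ± 0.39) held in 6 of 6 libraries. Npy2r over Galr1 (0.48 ± 0.44) and Cckar over Sstr2 (0.84 ± 0.72) held in 5 of 6.

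On the mouse build GRCm38.p2, with the deposited coordinates, Npy2r (ENSMUSG00000028004) lies on chromosome 3, 82538383 to 82548084, and Npy1r (ENSMUSG00000036437) on chromosome 8, 66697422 to 66706798. Galr1 (ENSMUSG00000024553) lies on chromosome 18, 82392496 to 82406777, and Galr2 (ENSMUSG00000020793) on chromosome 11, 116280939 to 116283938. Calcrl (ENSMUSG00000059588) lies on chromosome 2, 84330626 to 84425411, as does Prokr2 (ENSMUSG00000050558), 132337733 to 132385447. Ramp1 (ENSMUSG00000034353) lies on chromosome 1, 91179822 to 91225196, and Cckar (ENSMUSG00000029193) on chromosome 5, 53698485 to 53707704. Tacr1 (ENSMUSG00000030043) lies on chromosome 6, 82402475 to 82560103, and Sstr2 (ENSMUSG00000047904) on chromosome 11, 113619342 to 113626028. None of the 10 shares an exonic base with another listed gene. Sstr2 alone overlaps the span of another listed gene, Slc39a11 on the opposite strand. The counted lengths run from 2143 bases for Sstr2 to 7919 bases for Prokr2, so levels are compared between genes only as RPKM.

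**Figure D1:**
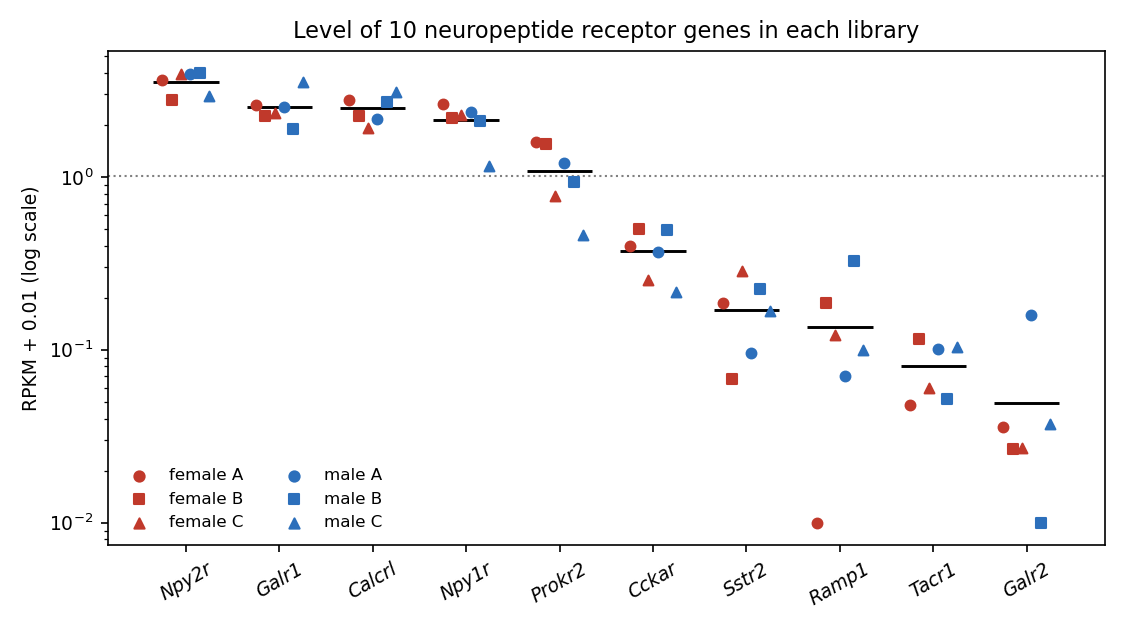
RPKM + 0.01 on a log axis for each receptor gene in each of the 6 libraries (red, female; blue, male), with a bar at the mean and a dotted line at 1 RPKM. The 5 genes on the left average 1.07 to 3.52 RPKM, and the 5 on the right 0.0393 to 0.362 RPKM.

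Both NPY receptor genes averaged above 2 RPKM. Npy2r, the Y2 receptor of nerve terminals, ranged from 2.76 to 3.96 RPKM with a median of 3.77, and averaged 3.52 ± 0.54 RPKM (SD, n = 6) on 147 to 321 reads per library. It was lowest in female B and male C, and the female and male ranges overlapped. Npy1r, the Y1 receptor found on cell bodies of small sensory neurons, ranged from 1.14 to 2.62 RPKM with a median of 2.23, and averaged 2.11 ± 0.51 RPKM on 51 to 163 reads. Its 1 low library was male C, and the other 5 lay between 2.08 and 2.62 RPKM. Npy1r was lower than Npy2r in 6 of 6 libraries, with a difference of -0.74 ± 0.34 on the log2(RPKM + 0.1) scale (two-sided exact permutation by sign flips, p = 0.03125). The related Npy6r averaged 4.04 ± 1.09 RPKM, above both, while Npy5r was at 0.228 ± 0.131 RPKM and Npy4r at 0.0551 ± 0.0655 RPKM. The peptide genes were low: Npy averaged 0.723 ± 0.472 RPKM and Pyy, for peptide YY, 0.735 ± 0.516 RPKM. Npy1r and Npy6r are similar in sequence, and the treatment of reads matching several places was not given in the sources used here.

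Of the galanin receptor genes measured, Galr1 was far above Galr2. Galr1, the Gi-coupled receptor, ranged from 1.89 to 3.52 RPKM with a median of 2.43, and averaged 2.51 ± 0.55 RPKM (SD, n = 6). Male C was highest and male B lowest, so the male libraries spanned the female range of 2.22 to 2.59 RPKM. Galr2, the Gq-coupled receptor, had 12 reads over the 6 libraries, of which 8 were in male A (exact Poisson 95% interval 3.45 to 15.8 reads), 1 in each of 4 others and 0 in male B. Its mean of 0.0393 ± 0.0546 RPKM fell to 0.0174 RPKM without male A. Galr1 exceeded Galr2 in 6 of 6 libraries, by 4.28 ± 0.47 on the log2(RPKM + 0.1) scale (exact permutation p = 0.03125). The galanin gene Gal itself was abundant at 321 ± 43.5 RPKM, and its relatives were not: Spx, for spexin, averaged 0.363 ± 0.297 RPKM and Galp had 0 reads. The receptor gene Galr3 was not analysed here.

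Of the transcripts for the CGRP receptor, that of Calcrl was present and that of Ramp1 nearly missing. Calcrl ranged from 1.91 to 3.10 RPKM with a median of 2.48, and averaged 2.48 ± 0.45 RPKM (SD, n = 6) on 216 to 316 reads per library. Ramp1 had 0 reads in female A, 4 in male A, 4 in male C, 8 in female C, 13 in female B and 23 in male B, an average of 0.126 ± 0.111 RPKM. Without male B that average was 0.0874 RPKM. A count of 0 in female A allows up to 0.190 CPM (counts scaled to the library total, here the floor of 3 counts in that library, counting error only). Ramp1 was lower than Calcrl in 6 of 6 libraries, with a difference of -3.64 ± 0.77 on the log2(RPKM + 0.1) scale (exact permutation p = 0.03125).

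The other Calcrl partners exceeded Ramp1. Ramp3 averaged 3.78 ± 0.780 RPKM and was above Ramp1 in 6 of 6 libraries (Ramp1 minus Ramp3, -4.22 ± 0.61 log2 units). Ramp2 averaged 0.936 ± 0.175 RPKM and was above Ramp1 in 6 of 6 libraries, with Ramp1 minus Ramp2 at -2.32 ± 0.81 log2 units (exact permutation p = 0.03125 for each). Ramp2 shares 33.4% of its exonic bases with Vps25 on the same strand, so its level is uncertain, and Ramp3 shares 7.3% with a gene on the other strand. The calcitonin receptor gene Calcr had 3 reads in all, and Calcrl exceeded it by 4.59 ± 0.32 log2 units in 6 of 6 libraries (exact permutation p = 0.03125). Crcp, whose protein was named as an intracellular component of the CGRP receptor and is also a subunit of RNA polymerase III, averaged 87.9 ± 15.7 RPKM. Peptide genes for this family were at opposite extremes: Calca averaged 974.7 ± 164 RPKM and Calcb 107.5 ± 18.3 RPKM, while the adrenomedullin gene Adm averaged 0.180 ± 0.143 RPKM and Adm2 and Iapp had 2 reads each.

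Calcrl and the Ramp genes are also known from blood vessels. The endothelial and mural marker list was highest in male C (21.7 RPKM summed) and female A (19.8 RPKM), where Calcrl was highest too (3.10 and 2.79 RPKM). That sum is mostly the mural genes Rgs5 and Pdgfrb (11.2 and 6.55 RPKM in male C). Endothelial genes were mixed. Cdh5 was lowest in female A (0.300 RPKM) and male C (0.304 RPKM). In male C Esam (0.0235 RPKM), Kdr (0.0555 RPKM) and Tie1 (0 reads) were at their lowest. The other way, Tek (0.562 RPKM) and Kdr (0.277 RPKM) were highest in female A. Cldn5 in male C (0.286 RPKM) was above its mean of 0.188 RPKM. Egfl7, the endothelial gene of highest mean (1.19 RPKM), was highest in male B (2.10 RPKM). In male B, however, the list was lowest (16.6 RPKM) and Calcrl came next, at 2.70 RPKM. All 12 markers had reads, and the defining endothelial genes Cdh5 (0.476 ± 0.139 RPKM) and Pecam1 (0.400 ± 0.0714 RPKM) lay below Calcrl in level. The part of vessel cells in the Calcrl level was not tested.

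Prokineticin receptors were led by Prokr1 rather than Prokr2. Prokr2 ranged from 0.451 to 1.58 RPKM with a median of 1.05, and averaged 1.07 ± 0.44 RPKM (SD, n = 6) on 53 to 297 reads. Female A (1.58), female B (1.54) and male A (1.19 RPKM) were high, and male C (0.451) and female C (0.769 RPKM) low. Its relative Prokr1, the receptor through which prokineticins sensitise heat-sensing neurons, averaged 11.1 ± 2.22 RPKM. Prokr2 was lower than Prokr1 in 6 of 6 libraries, with a difference of -3.33 ± 0.69 log2 units (exact permutation p = 0.03125). The ligand gene Prok2 averaged 0.162 ± 0.120 RPKM and Prok1 had 0 reads in every library, which allows up to between 0.125 and 0.191 CPM per library. The receptors are close relatives, and a read that matches both could be split or dropped.

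Receptors for cholecystokinin, somatostatin and substance P were at low levels. Cckar ranged from 0.207 to 0.489 RPKM with a median of 0.373, and averaged 0.362 ± 0.118 RPKM (SD, n = 6) on 9 to 35 reads per library, with no separation of the sexes. Cckbr, the brain-type receptor, had 2 reads in all, and Cckar was higher in 6 of 6 libraries by 2.07 ± 0.58 log2 units (exact permutation p = 0.03125). The peptide gene Cck differed widely between libraries: it was between 3.41 and 4.34 RPKM in female B, female C, male A and male B, 0.920 RPKM in female A and at 0 reads in male C. The low Cck libraries did not have the same Cckar level, since female A was near the middle (0.387 RPKM) and male C lowest (0.207 RPKM).

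Sstr2, an inhibitory somatostatin receptor, had 3 to 14 reads per library and ranged from 0.0573 to 0.274 RPKM with a median of 0.167. In male B its 11 reads carry an exact Poisson 95% interval of 5.49 to 19.7 reads, against a lowest count of 3 in female B. Sstr4 was the highest of the family at 2.30 ± 0.690 RPKM and Sstr1 followed at 0.941 ± 0.436 RPKM. Sstr5 averaged 0.0693 ± 0.0418 RPKM and Sstr3 had 0 reads in every library. Sstr2 was lower than Sstr1 in 6 of 6 libraries, with a difference of -1.95 ± 0.26 log2 units (exact permutation p = 0.03125). The somatostatin gene Sst averaged 0.219 ± 0.246 RPKM.

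Tacr1, the substance P receptor known best from dorsal horn neurons, had 3 to 13 reads per library and ranged from 0.0376 to 0.106 RPKM with a median of 0.0706. Its ligand gene Tac1 averaged 113 ± 19.1 RPKM, and Tac2 and Tac4 averaged 0.559 ± 0.292 and 0.0369 ± 0.0432 RPKM. Tacr3 averaged 0.244 ± 0.194 RPKM and Tacr2 0.0406 ± 0.0398 RPKM. Tacr1 was lower than Tacr3 in 6 of 6 libraries, with a difference of -0.88 ± 0.49 log2 units (exact permutation p = 0.03125), on a scale where the added 0.1 is larger than the Tacr1 level. Of the 118 reads of Tacr3, 56 were in female B. In male B the order rests on 5 reads of Tacr1 (exact Poisson 95% interval 1.62 to 11.67) and 7 of Tacr3. In female A it rests on 3 reads (0.62 to 8.77) and 7, so counting error is large there.

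**Figure D2:**
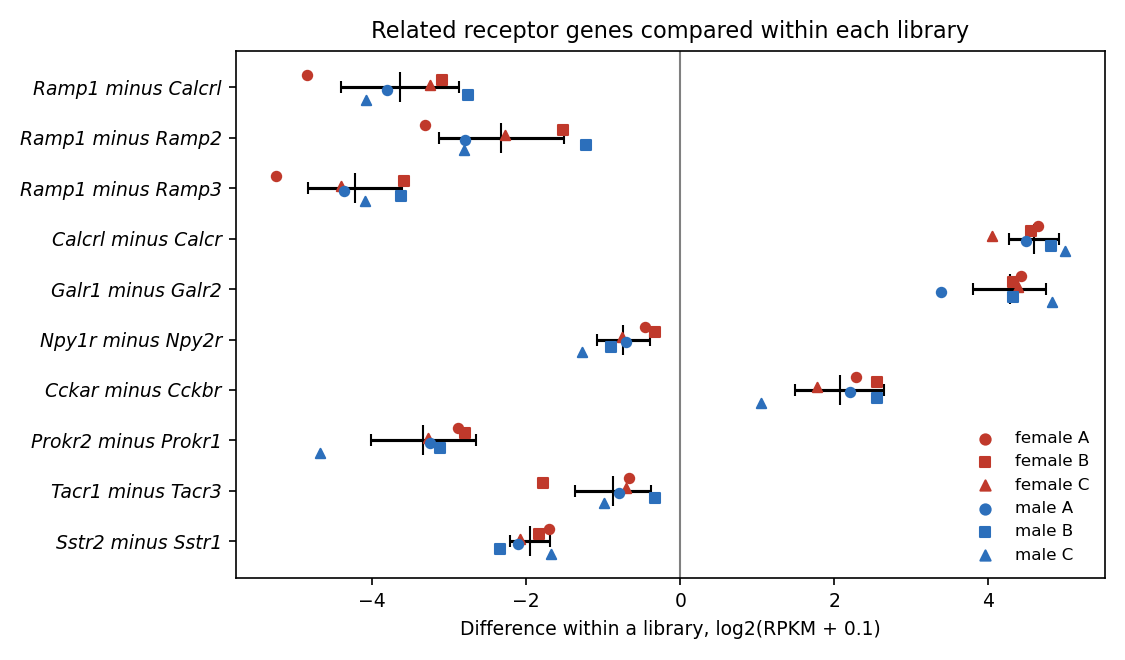
Difference between related receptor genes within each library, in log2(RPKM + 0.1), for the 10 pairs compared (red, female; blue, male; black, mean and SD over 6 libraries). All 6 libraries lie on the same side of 0 in each pair, from -4.22 for Ramp1 minus Ramp3 to 4.59 for Calcrl minus Calcr.

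In all 10 pairs were compared, of which 3 had the first gene higher and 7 lower, and each gave an exact permutation p of 0.03125, also after adjustment over the pairs. That is the smallest p that 6 libraries and 64 sign flips allow. The test asks whether the order of 2 genes holds in every library, and unrelated genes of different level can pass it too. The size of a difference that involves a gene with few reads depends on the added 0.1. With 1 in its place Calcrl minus Calcr came to 1.78, Galr1 minus Galr2 to 1.74 and Ramp1 minus Calcrl to -1.63. With 0.01 they came to 7.44, 6.19 and -4.78.

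**Figure D3:**
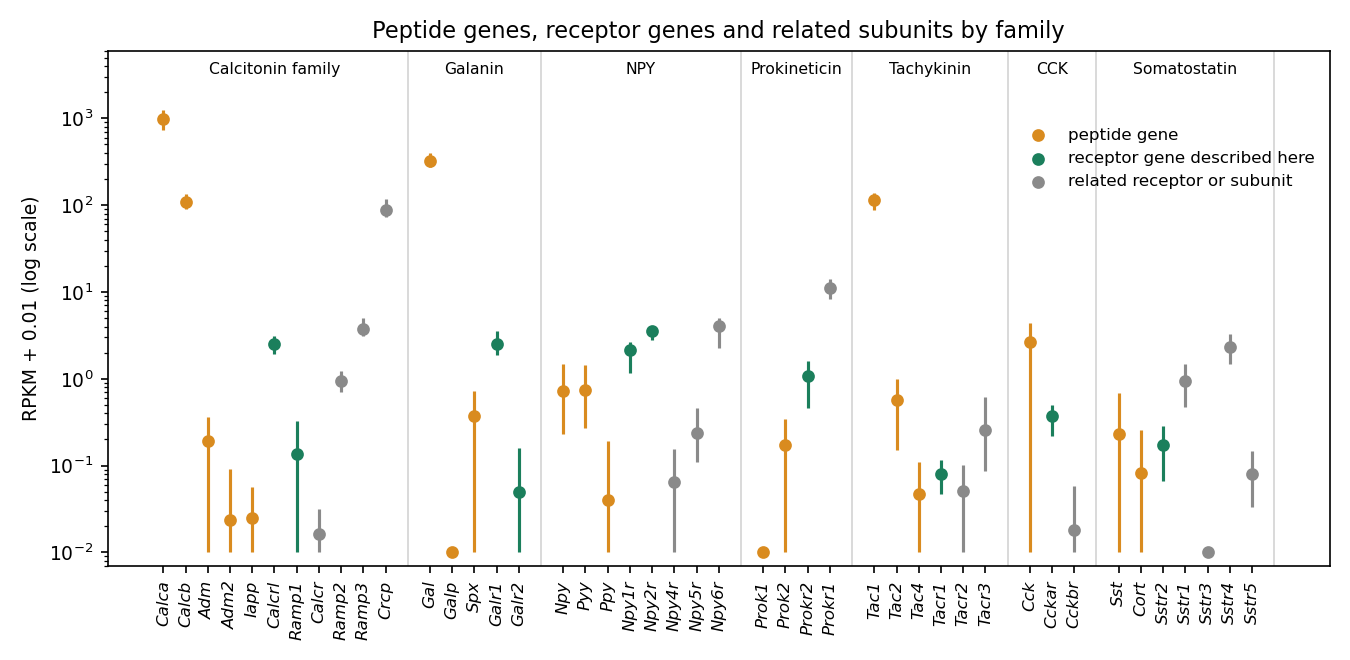
Mean RPKM + 0.01 on a log axis (points) with the range over 6 libraries (lines) for peptide genes (orange), the 10 receptor genes (green) and related receptors or subunits (grey), by family. Calca (974.7), Gal (321) and Tac1 (113 RPKM) stand far above every receptor gene of their families in level, and Prokr1, Npy6r, Ramp3 and Sstr4 stand above the receptor genes described of theirs.

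Of the 19 peptide genes 5 reached 1 RPKM (Calca, Gal, Tac1, Calcb and Cck), and of the 15 related receptors and subunits 5 did (Crcp, Prokr1, Npy6r, Ramp3 and Sstr4). Signalling partners were mostly higher than the receptors. Of 25 genes for G protein subunits, effector enzymes and channels, receptor kinases, arrestins and peptidases, 21 reached 1 RPKM. Rgs4, which speeds the switching off of Gi and Gq proteins, averaged 943 ± 120 RPKM, followed by Gnaq (the Gq subunit) at 188 ± 14.1 and Gnao1 (the Go subunit) at 100.4 ± 11.8 RPKM. The G protein-gated potassium channel gene Kcnj3 averaged 6.40 ± 1.11 RPKM, while Kcnj6 had 1 read in all and Kcnj9 10. Gnas, for the stimulatory Gs subunit that the CGRP receptor uses, was counted at 0.155 ± 0.0337 RPKM. It overlaps exons of Nespas and Gm20721 on the other strand, and the strand setting of the count was not given in the sources used here. Kcnj3, Kcnj9 and Gnas were picked out after their values were seen.

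Variation between libraries differed among the receptors. For Npy2r the coefficient of variation was 15.3%, against 6.33% from read counting alone, and for Calcrl 18.2% against 6.37%. Galr1 and Npy1r were at 21.9% and 24.1%, and Prokr2 varied most among the receptors at 1 RPKM or more, at 41.4% against 7.48% from counting. Among the lower genes, Sstr2 (50.1% against 37.4%), Tacr1 (43.1% against 36.9%) and Cckar (32.7% against 21.0%) were closer to the counting value. Ramp1 (87.8% against 34.0%) and Galr2 (138.9% against 70.7%) were further above it.

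Male C held the highest or lowest value for several of these genes. Of the 5 receptor genes at 1 RPKM or more, 4 lay outside the range of the other 5 libraries in male C, against 0 to 2 in each other library. Over the 11434 genes tested with a mean of at least 1 RPKM, 46.0% lay outside that range in male C, the highest share of the 6 libraries, against 22.6% to 40.2% in the others. With 5 genes the count is a description and is not particular to the receptors. Npy1r was 1.14 RPKM in male C and 2.31 ± 0.21 RPKM in the others (SD, n = 5), a log2 ratio of -1.01. Prokr2 was 0.451 RPKM against 1.20 ± 0.36 RPKM in the others, a log2 ratio of -1.41. In the other direction, Galr1 was 3.52 RPKM against 2.31 ± 0.28 RPKM and Calcrl 3.10 against 2.36 ± 0.37 RPKM. Npy2r, at 2.93 RPKM, lay within the range of the others.

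Some markers of large-diameter sensory neurons were also low in this library and others were not. The 6 markers, from Etv1 at 34.9 RPKM to Runx3 at 0.123 RPKM, all had reads and summed to 60.6 RPKM in male C, the lowest of the 6 libraries, and to between 64.6 and 81.6 RPKM in the others. Among them Pvalb was 0.841 RPKM in male C and 4.56 to 11.3 RPKM elsewhere. Nefh (17.6 RPKM), Ntrk3 (0.796 RPKM) and Runx3 (0.0135 RPKM) were also lowest in male C. Etv1, the most abundant, was near the top of its range there at 38.9 RPKM (27.7 to 39.8 RPKM elsewhere), and Ntrk2 was within its range at 2.45 RPKM. All but Etv1 and Runx3 were picked out after their values were seen. The immediate early genes, switched on by stimulation or dissociation, summed to between 40.9 RPKM in male A and 323 RPKM in female C, with 233 RPKM in male C, and ranged from Fos at 145 to Npas4 at 0.226 RPKM. The part of these cells or states in the receptor levels was not tested. In male C they cannot be told apart from the use of a single embryo or from other traits of that library. Its read total was the lowest (15693013), and it had the fewest genes with a read (19526).

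**Figure D4:**
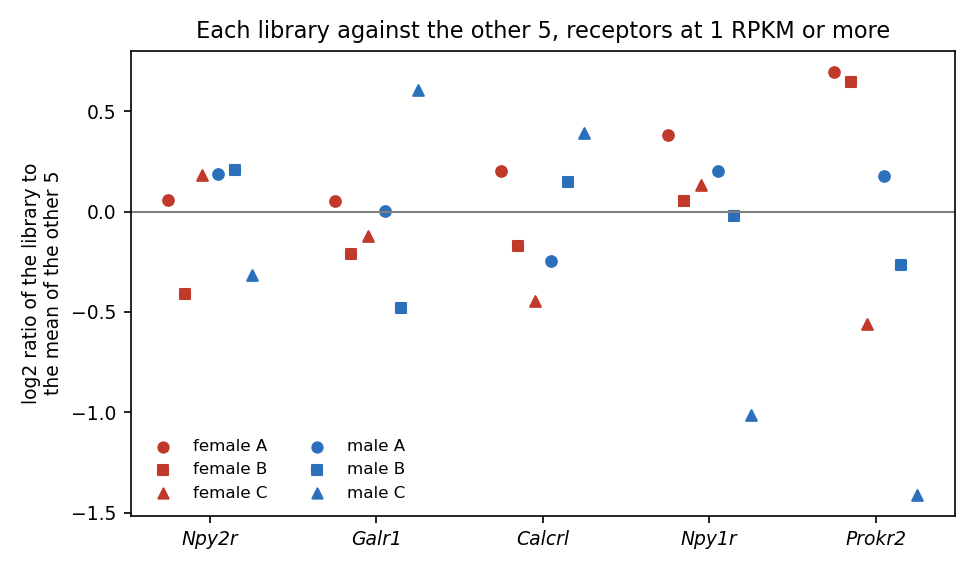
Log2 ratio of each library to the mean of the other 5 (vertical axis) for the 5 receptor genes at 1 RPKM or more (red, female; blue, male). Male C lies lowest for Npy1r (-1.01) and Prokr2 (-1.41) and highest for Galr1 (0.61) and Calcrl (0.39).

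No receptor gene was called different between female and male embryos. By edgeR's quasi-likelihood test 0 of the 7 receptor genes tested were called, where 5 of 15026 genes (0.0333%) were called over the whole table. At an unadjusted p below 0.05 the count was also 0 of 7, against 166 of 15026 genes (1.10%). DESeq2 and limma-voom called 0 of 7, against 7 (0.0466%) and 6 (0.0399%) genes. At such shares a count of 0 among 7 genes is no result about the receptors. Prokr2 had the largest difference: the female libraries (A to C) had 1.58, 1.54 and 0.769 RPKM, and the male libraries 1.19, 0.917 and 0.451 RPKM. The groups overlapped, and the log2 difference, female minus male, was 0.59 (standard error 0.38, adjusted p = 0.99968 by edgeR). It was 0.29 without male C, 0.86 without female C and 0.90 without male A. Npy1r differed by 0.33 (standard error 0.30, adjusted p = 0.99968 by edgeR), by 0.08 without male C and by 0.53 without male A.

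The other 5 receptor genes tested differed less. Calcrl was at -0.20 (standard error 0.24), Tacr1 at -0.15 (0.62), Galr1 at -0.14 (0.28), Npy2r at -0.07 (0.24) and Cckar at 0.07 (0.46). Of the 7 tested, 3 were higher and 4 lower in females, with a median log2 difference of -0.07, against a median of -0.005 over all 15026 genes tested. The 3 genes that did not pass the filter on low counts had female and male means of 0.169 and 0.152 RPKM (Sstr2), 0.0958 and 0.156 RPKM (Ramp1), and 0.0198 and 0.0588 RPKM (Galr2). Of the related genes, 0 of 9 tested peptide genes, 0 of 9 tested receptor relatives and 0 of 23 tested signalling partners were called. Over all genes 5 of 15026 (0.0333%) were called, so these counts are no result about the lists.

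**Figure D5:**
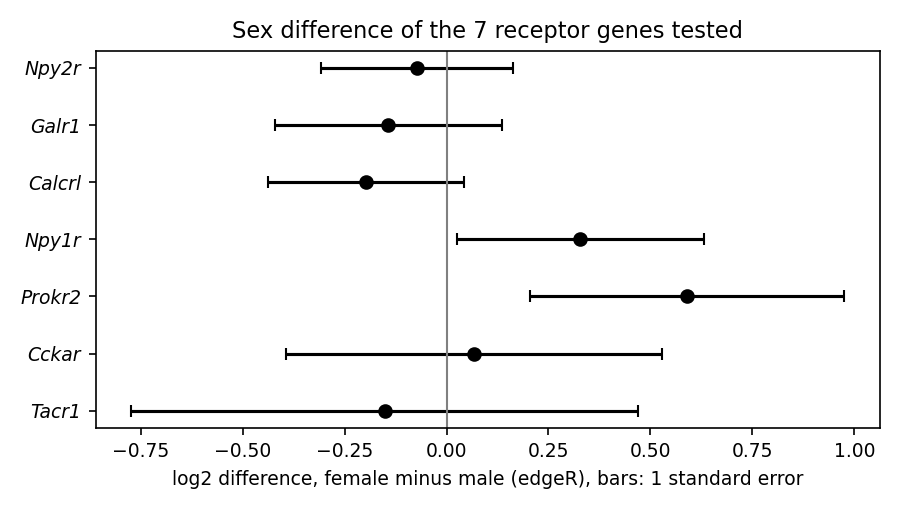
Log2 difference, female minus male, from edgeR (points) with 1 standard error (bars) for the 7 receptor genes tested, 3 libraries per sex. Points run from -0.20 for Calcrl to 0.59 for Prokr2.

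Genes whose levels varied most alike over the 6 libraries were found for the 3 highest receptors, by the root mean square difference of centred log2 CPM among 15025 genes. For Npy2r these were Atp4a (0.052) and Dnajc24 (0.076), for Galr1 Slc25a26 (0.050) and Rps27a (0.056), and for Calcrl Ftl1-ps1 (0.067) and Tnfaip8l3 (0.076). With 6 libraries and so many genes such likenesses are a description only.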

How the data were processed

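The authors deposited 1 table per library with a read count, a CPM and an RPKM value for each of 41388 genes. They used Subread, featureCounts 1.4.5 and GRCm38.p2, per the submitters' processing notes. Annotation release, strand setting and treatment of multiply matching reads were not given in the sources used here. Deposited CPM and RPKM equal the counts scaled to the library total and the deposited length. Levels were therefore recomputed as RPKM with TMM-scaled library sizes (edgeR 4.0.16, R 4.3.3). Symbols came from a table of Ensembl gene identifiers and names (97.26% of identifiers matched). Libraries were grouped by the sex in their titles. Sex was tested on the deposited counts with edgeR's quasi-likelihood test after filterByExpr, with Benjamini-Hochberg adjustment over all genes at 0.05. Receptor pairs were tested by exact sign flips of the within-library difference of log2(RPKM + 0.1), which understates differences of low genes, with adjustment over the 10 pairs. The edgeR step was tested on simulated data. PCR copies were not told apart by molecular identifiers, so intervals and floors cover only counting error. The libraries held different embryos, and the p-values of the sex tests measure the spread between them. Each sign-flip p-value is at its smallest possible value and does not measure the size of that spread.

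The receptor genes and lists were chosen with earlier results of these data known. By the naming rule all 10 receptors were named, then the highest and lowest member of each marker list, peptides and relatives at 1 RPKM or more, the 3 highest and the lowest signalling partner, and the 2 most alike genes of the 3 highest receptors. One gene that the rule names is not reported here. Other genes printed, mainly the remaining members of each receptor's family, were added after their values were seen. Alternatives tried were RLE and upper-quartile factors, library totals, other filters, DESeq2 1.42.0, limma-voom (limma 3.58.1), the library letter as a block, pooled embryos as a covariate, a threshold of 0.10, CPM, other pseudocounts and each library left out.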

Additional observations from a re-analysis of the deposited data

Results flagged for a closer look

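By Dixon's ratio chance marks about 1 in 20 groups of normally distributed values. That rate need not hold for genes with few reads, so the count of marked genes is a description only. Over 41 named genes, 5 had a library far from the other 5 by this ratio. Of the 10 receptor genes these were Npy1r, at 1.14 RPKM in male C with the next library at 2.08 RPKM, and Galr2, at 0.149 RPKM in male A with the next at 0.0274 RPKM, which rests on 8 reads. Among the others, Crcp was at 118 RPKM in male C (next 88.01 RPKM) and Lyz2 at 1.06 RPKM in male B (next 0.647 RPKM). Kcnj6 was at 0.00719 RPKM in male B, from 1 read, with 0 in the other libraries.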

How the results depend on the processing

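No receptor pair changed direction with CPM in place of RPKM. The other alternatives for pairs (pseudocount, RLE factors, a library left out) could hardly have changed a sign that all 6 libraries share, so they say nothing of stability. Nor can leaving out 1 of 6 libraries move a mean level by 1 SD. The order of the 10 levels was the same with RLE and upper-quartile factors and library totals. These only rescale whole libraries and could hardly have changed it. The order did depend on scaling to gene length. In mean CPM with TMM-scaled library sizes, Calcrl (12.13) stood above Npy2r (11.9). Prokr2 (8.496) stood above Galr1 (7.215) and Npy1r (6.35), and Ramp1 (0.3801) and Tacr1 (0.3517) above Sstr2 (0.3446). Without male A, Galr2 fell from 0.0393 to 0.0174 RPKM. No receptor gene was called between the sexes under any alternative. Over all genes edgeR called 5, and 12 with no filter on low counts. With the library letter as a replicate block 5 genes and 0 receptor genes were called. The letters are not stated to mark a shared litter or day. Deviations of same-letter libraries correlated at 0.284 (A), -0.294 (B) and -0.077 (C). Libraries of different letters ran from -0.484 (female C with male A) to 0.549 (female C with male B). So few values cannot show what the letters share. The sign of 4 uncalled sex differences changed when a library was left out: over such fits Cckar ran from -0.19 to 0.37, Tacr1 (where still tested) from -0.47 to 0.08, Npy2r from -0.20 to 0.06 and Galr1 from -0.34 to 0.11 log2 units. Depth limits Galr2, Sstr2, Tacr1 and Ramp1, at 12 to 52 reads over 6 libraries.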
